A study of Mus musculus with 11 samples.

Results

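The TAM receptors Axl, Mertk and Tyro3, their secreted ligands Gas6 and protein S (Pros1), and the bridging protein Mfge8 were followed through 3 states of cultured mouse macrophages. The 6 genes were taken by name from the 18193 genes measured, and all 6 were on the array. Where several probe sets with 1 gene symbol measured a gene, the one with the highest average across the 11 arrays was used. Macrophages were grown from bone marrow of Rag1-/- C57BL/6 mice aged 7 weeks, animals without mature T and B cells, and were sorted for F4/80, a macrophage surface protein, after 7 days in culture. M0 cells had no added cytokines (5 arrays). M1 cells had IFN-g and LPS, with LPS given for the last 24 h per the sample labels (3 arrays). M2a cells had IL-4 and IL-13 (3 arrays). Whether the arrays of a state came from different animals is not stated, so the p-values reflect spread among these arrays alone, and that spread may be technical. Values are deposited log2 probe-set values, on which a difference of 1 is a 2-fold change, and they cannot be compared between genes. A gene was called changed at a Benjamini-Hochberg adjusted p under 0.05 in a limma fit of all 18193 genes.

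A macrophage that clears dying cells recognises phosphatidylserine, a lipid that apoptotic cells turn to their outer surface. Gas6 and protein S bind that lipid through a domain that needs vitamin K-dependent modification, and bind TAM receptor tyrosine kinases at their other end; Gas6 engages Axl, Mertk and Tyro3, and protein S engages Mertk and Tyro3 but not Axl. Mfge8 works by another route, joining phosphatidylserine to integrins of the alpha-v class. TAM receptors also restrain inflammatory signalling, in part through the SOCS proteins, and Mertk is a common marker of mature mouse macrophages.

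The M0 arrays were not equal. Averaging M0 arrays 1 to 3 gave the same value as averaging M0 arrays 4 and 5, to within 8.333e-05 for each probe set. The 5 arrays therefore do not amount to 5 independent measurements, and the fit, which counts them as such, may give adjusted p-values that are too small. Across genes, arrays correlated at 0.956 to 0.995 within M0, at 0.997 to 0.998 within M1 and at 0.996 to 0.998 within M2a. M0 arrays 1 and 4 had the lowest summed level of 11 macrophage markers (15.01 and 15.07, against 15.36 to 15.44 in the other M0 arrays, as log2 of the sum) and the highest summed level of 11 neutrophil-lineage markers (16.71 and 16.18, against 15.73 to 15.97). The same arrays had the lowest M0 values of Axl, Mertk, Gas6 and Pros1. The actin 5' minus 3' difference, a measure of RNA and labelling quality, was -1.27 to 0.05 in M0, 0.13 to 0.18 in M1 and -0.63 to -0.53 in M2a. The hybridization control probe sets averaged 10.61 to 11.70 in M0, 9.64 to 9.75 in M1 and 9.79 to 9.96 in M2a. The poly-A spike probe sets averaged 8.47 to 9.48 in M0, 5.27 to 5.37 in M1 and 5.93 to 6.11 in M2a, and the 18S RNA probe sets 8.96 to 9.54, 6.15 to 6.30 and 8.51 to 8.64. The part of these differences in the results was not tested beyond fits with the hybridization controls or the actin difference as a covariate. The hybridization controls overlapped between none of the states, and the actin difference of M1 overlapped with neither M0 nor M2a. In such comparisons these fits cannot tell the covariate and the state apart, so a lost call or turned sign has no settled reading.

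The 2 receptors with clear signal, Axl and Mertk, parted in M1 and fell together in M2a. Axl, the receptor that depends on Gas6, read 8.54, 9.75, 9.73, 8.68 and 10 in M0 arrays 1 to 5, 9.58, 9.58 and 9.60 in M1, and 5.58, 5.90 and 4.22 in M2a. The M1 arrays lay inside the range of M0, and every M2a array lay below every other array, with the third M2a array lowest. Axl fell by 4.11 on the log2 scale from M0 to M2a, a 17.2-fold difference (SE 0.41, adjusted p = 1.8e-05, limma), the 68th largest of all genes in that comparison. All 3 M2a values lie below the median gene, near the level of Tyro3 below, and no detection calls were used, so the size of the fold is uncertain. M1 and M0 differed by 0.25 (95% interval -0.65 to 1.14, adjusted p = 0.66, limma), and the sign of that small difference turned in several alternatives, to -0.24 without M0 arrays 1 and 4. A second Axl probe set lay at 2.39 to 2.83 on all arrays and followed none of this, with an M2a minus M0 difference of 0.23 (adjusted p = 0.12, limma over all 45037 probe sets, of which 30.5% were called).

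Mertk had its highest values in M1. It read 8.19, 9.39, 9.75, 8.87 and 9.35 in M0, 11.28, 11.25 and 11.23 in M1, and 7.52, 7.65 and 6.61 in M2a. The ranges of the 3 states did not overlap, and their order was M1, M0, M2a. Mertk rose by 2.14 in M1, a 4.42-fold difference (SE 0.32, adjusted p = 0.00026, limma), and fell by 1.85 in M2a, a 3.60-fold difference (SE 0.32, adjusted p = 0.0011, limma). The rise in M1 was 1.76 without M0 arrays 1 and 4 (adjusted p = 6.4e-05, limma), and 0.91 with the call lost (adjusted p = 0.18, limma) when the hybridization controls entered as a covariate. Within arrays, Mertk minus Axl was -0.65 to 0.19 in M0, 1.63 to 1.70 in M1 and 1.75 to 2.39 in M2a, a shift in the balance of these receptors in both cytokine states. Its absolute size has no meaning, since the probe sets differ.

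Tyro3, the third TAM receptor, gave little signal. Its values were 5.46, 4.95, 5.33, 5.50 and 4.99 in M0, 4.90, 4.84 and 4.77 in M1, and 5.42, 5.48 and 5.59 in M2a, while the median gene lay at 5.93 to 6.00. Between 31.8% and 44.6% of genes had lower values on the same array. Tyro3 fell by 0.41 in M1 (SE 0.14, adjusted p = 0.034, limma) and differed by 0.25 in M2a (95% interval -0.05 to 0.55, adjusted p = 0.19). The fall lost its call when M0 array 1, 3 or 4 or any M1 array was left out, with differences of -0.44 to -0.34 and adjusted p between 0.056 and 0.11. Another Tyro3 probe set, at 2.57 to 3.21, went the other way, with M1 higher than M0 by 0.39 (adjusted p = 0.011, limma over all probe sets, of which 39.9% were called), so these arrays give no firm direction for Tyro3.

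**Figure D1:**
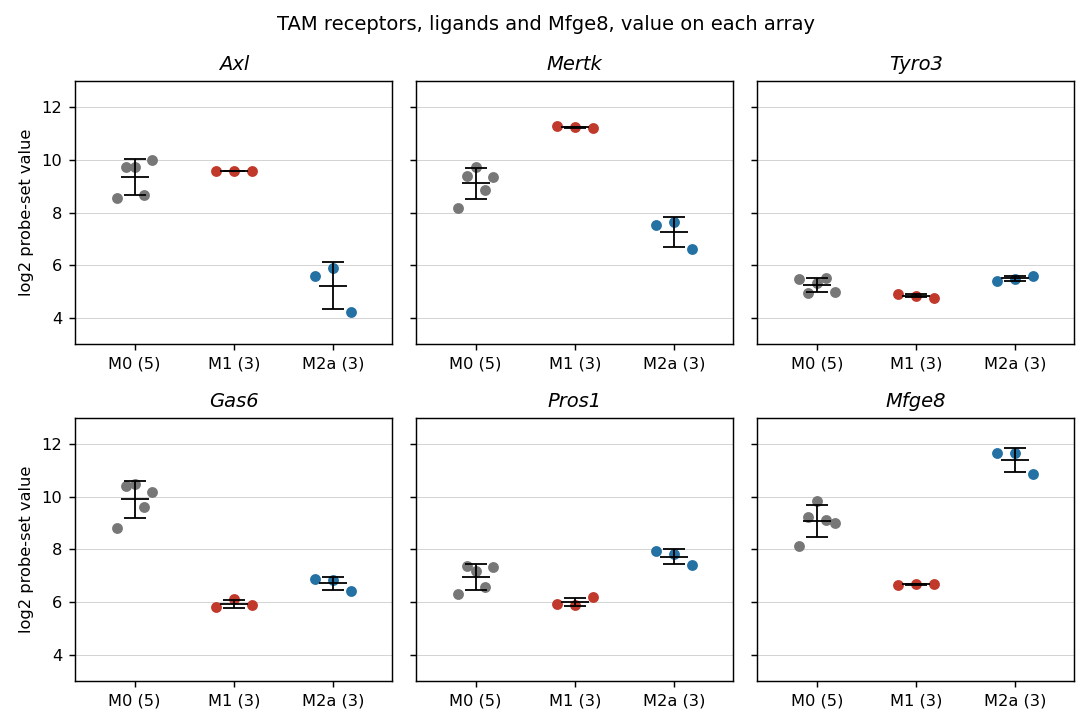
Log2 probe-set value of each gene on each array (points; grey M0, red M1, blue M2a; the number of arrays is in brackets) with the mean and SD of each state (black bars). Axl is low in M2a alone, Mertk is highest in M1, Gas6 is highest in M0, and Mfge8 runs from 6.68 in M1 to 11.40 in M2a.

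Gas6, the ligand shared by the TAM receptors, was high in M0 and low in both cytokine states. It read 8.80, 10.42, 10.48, 9.62 and 10.18 in M0, 5.80, 6.10 and 5.89 in M1, and 6.87, 6.82 and 6.43 in M2a. No M1 or M2a array reached the lowest M0 array, and M1 arrays 1 and 3 lay below the median gene. Gas6 fell by 3.97 in M1, a 15.7-fold difference (SE 0.32, adjusted p = 2.1e-06, limma), and by 3.19 in M2a, a 9.16-fold difference (SE 0.32, adjusted p = 2.1e-05, limma). These comparisons share the M0 arrays. M1 and M2a did not overlap, yet their difference of -0.78 did not pass the test (95% interval -1.57 to 0.02, adjusted p = 0.13, limma). It passed in 6 of 26 alternatives, at -0.78 each in the fit of only the 2 groups (adjusted p = 0.0011), with M0 arrays 1 and 4 left out (adjusted p = 0.00059) and with M0 array 1 alone left out (adjusted p = 0.018, limma). In this comparison M0 arrays enter only the shared estimate of spread. Leaving out those that stood apart lowers the adjusted p with the difference unchanged, so these passes add no evidence. A dimmer Gas6 probe set, at 4.59 to 5.50, was lower in M1 by 0.46 on the log2 scale (adjusted p = 0.028) and differed by -0.32 in M2a (adjusted p = 0.12). Its arrays overlapped in both comparisons, and its M0 arrays had another order, with arrays 1 and 4 highest.

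Pros1, which encodes protein S, went down in M1 and up in M2a by smaller amounts. Its values were 6.31, 7.35, 7.18, 6.56 and 7.34 in M0, 5.92, 5.87 and 6.17 in M1, and 7.92, 7.84 and 7.40 in M2a. The groups did not overlap, although the third M2a array lay only just above the highest M0 array. Pros1 in M1 arrays 1 and 2 lay below the median gene. Pros1 fell by 0.96 in M1, a 1.94-fold difference (SE 0.24, adjusted p = 0.0082, limma), and rose by 0.77 in M2a, a 1.71-fold difference (SE 0.24, adjusted p = 0.029, limma). The rise rested on few arrays: without M2a array 1 it was 0.67 (adjusted p = 0.12) and without M2a array 2 it was 0.71 (adjusted p = 0.11), and without M0 arrays 1 and 4 it was 0.43 (adjusted p = 0.025). With the hybridization controls as a covariate it was -0.33. M1 was lower than M2a by 1.73 on the log2 scale (3.32-fold, adjusted p = 0.00045, limma).

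Mfge8, the bridge to integrins, had the widest spread between the cytokine states. It read 8.14, 9.23, 9.83, 9.13 and 9.0 in M0, 6.66, 6.68 and 6.70 in M1, and 11.65, 11.67 and 10.86 in M2a. All arrays of each state were apart from those of the others, in the order M2a, M0, M1. Mfge8 fell by 2.39 in M1 (5.23-fold, SE 0.31, adjusted p = 8.4e-05, limma) and rose by 2.33 in M2a (5.02-fold, SE 0.31, adjusted p = 0.00015, limma). Between M1 and M2a it differed 26.3-fold, a log2 difference of -4.71 ± 0.34 (SE; adjusted p = 8.3e-07, limma), the 106th largest of all genes in that comparison. The difference between Mfge8 and Gas6 on the same array moved from -1.19 to -0.48 in M0 to 0.59 to 0.86 in M1 and 4.43 to 4.86 in M2a.

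**Figure D2:**
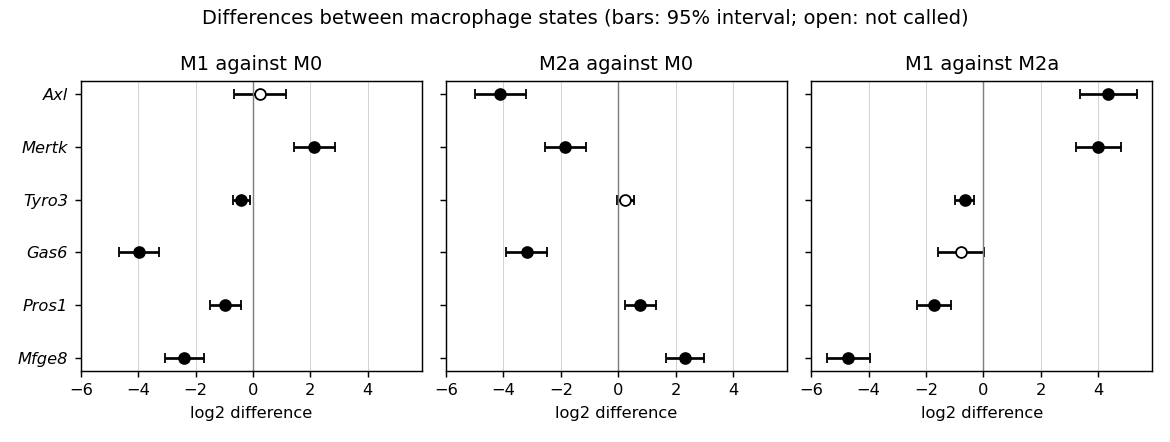
Log2 differences between the states for each gene, with 95% intervals from the limma fit; filled points were called at an adjusted p under 0.05. Axl and Mertk lie on the right and Mfge8 and Pros1 on the left in M1 against M2a, where Gas6 was not called.

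Counted by comparison, 5 of the 6 genes were called in M1 against M0, 1 higher (Mertk) and 4 lower (Gas6, Mfge8, Pros1 and Tyro3), where 39.7% of all genes were called, 22.1% higher and 17.6% lower. In M2a against M0, 5 were called, Mfge8 and Pros1 higher and Gas6, Axl and Mertk lower, where 31.9% of all genes were called, 18.6% higher and 13.3% lower. In M1 against M2a, 5 were called, Axl and Mertk higher and Mfge8, Pros1 and Tyro3 lower, where 29.4% of all genes were called, 13.7% higher and 15.6% lower. Called changes of at least 2-fold against M0 numbered 3 of the 6 in M1, 1 higher and 2 lower, where 12.7% of all genes had one, 6.27% higher and 6.41% lower. In M2a they numbered 4, 1 higher and 3 lower, where 9.36% of all genes had one, 4.41% higher and 4.95% lower. Between M1 and M2a they numbered 4, 2 in each direction, where 11% of all genes had one, 5.51% higher and 5.47% lower. Arrays of the groups did not overlap for 5 of the 6 genes in M1 against M0, for 5 in M2a against M0 and for all 6 in M1 against M2a, as for 40.1%, 35.1% and 64.6% of all genes. Without M0 arrays 1 and 4, 4 of the 6 were called in M1 against M0, 6 in M2a against M0 and 6 in M1 against M2a. In that setting 9218, 8233 and 8653 of all 18193 genes were called. With the hybridization controls as a covariate, 3 were called in M1 against M0, all lower, where 8651 of all genes were called, 4340 of them lower.

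Gas6, Pros1 and Mfge8 fell together in M1, and the upstream sequence of each is shown with that of Mertk, which rose there, so that it can be read beside these changes. The windows are the 250 bases before the annotated gene start in RefSeq (build GRCm38.p6), on the gene's own strand: Mertk at chr2:128698665-128698914 (+), Gas6 at chr8:13494536-13494785 (-), Pros1 at chr16:62854057-62854306 (+) and Mfge8 at chr7:79149061-79149310 (-). All 6 genes matched the RefSeq table by symbol. The windows of Axl and Tyro3 start inside the annotated gene and are not printed. Capitals mark matches, on either strand, to a STAT-type palindrome with a gap of 3 bases (TTCNNNGAA) or 4 bases between TTC and GAA, an interferon response element (GAAA repeated after any 2 bases), an NF-kB site (GGGAC followed at once by TTTCC), an AP-1 site (TGANTCA) or a GC box (GGGCGG); matches that overlap run together.
Mertk: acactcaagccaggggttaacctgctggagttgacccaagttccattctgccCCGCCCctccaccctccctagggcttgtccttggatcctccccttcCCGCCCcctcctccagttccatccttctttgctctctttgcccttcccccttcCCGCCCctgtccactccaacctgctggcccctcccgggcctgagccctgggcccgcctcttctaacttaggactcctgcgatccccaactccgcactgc
Gas6: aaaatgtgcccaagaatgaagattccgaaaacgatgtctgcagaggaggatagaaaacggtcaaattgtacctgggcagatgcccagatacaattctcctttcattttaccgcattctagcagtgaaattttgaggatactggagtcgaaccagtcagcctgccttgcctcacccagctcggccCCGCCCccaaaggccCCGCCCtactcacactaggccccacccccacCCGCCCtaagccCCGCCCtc
Pros1: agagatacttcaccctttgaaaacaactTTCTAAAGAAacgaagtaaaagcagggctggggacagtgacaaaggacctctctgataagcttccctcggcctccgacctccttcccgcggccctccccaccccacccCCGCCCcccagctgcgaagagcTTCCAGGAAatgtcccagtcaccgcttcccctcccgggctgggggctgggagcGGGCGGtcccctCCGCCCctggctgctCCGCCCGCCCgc
Mfge8: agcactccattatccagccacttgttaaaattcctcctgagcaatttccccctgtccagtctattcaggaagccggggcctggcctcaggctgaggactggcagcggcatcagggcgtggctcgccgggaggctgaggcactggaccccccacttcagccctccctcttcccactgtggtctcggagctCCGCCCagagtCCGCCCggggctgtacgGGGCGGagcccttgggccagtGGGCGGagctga

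Pros1 was the only gene of the 6 whose window held a STAT-type match, TTCTAAAGAA with the 4-base gap and TTCCAGGAA with the 3-base gap. Such matches occurred in 5.85% and 7.02% of all 32851 windows of that length. No window of the 6 genes matched the interferon response element (2.98% of all windows), the NF-kB letters (0.14%) or the AP-1 letters (6.75%). GC boxes occurred in all 6, with 4 in Gas6, 5 in Pros1, 4 in Mfge8, 3 in Mertk, 3 in Tyro3 and 1 in Axl, against 32.7% of all windows with any. The share of G and C was 54.8% in Gas6, 64.4% in Pros1, 65.2% in Mfge8 and 63.6% in Mertk, with a median of 52.4% over all windows. Matches are letters only, and binding was not measured here.

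The integrin subunits that Mfge8 binds were set beside it, a choice made after their values were seen. In M1 all of them fell: the beta-3 subunit Itgb3 by 3.49 (adjusted p = 4.7e-07), the beta-5 subunit Itgb5 by 1.97 (adjusted p = 1.1e-05) and the alpha-v subunit Itgav by 0.79 (adjusted p = 0.0093, limma). Itgb3 in M1, with a mean of 4.9, lay below the median gene. In M2a Itgb3 rose by 1.14 (adjusted p = 0.0032), from a mean of 8.39 to 9.54, Itgb5 differed by -0.16 (adjusted p = 0.57) and Itgav fell by 0.67 (adjusted p = 0.026, limma). The last call was lost without M0 array 2 or 3 or any M2a array (adjusted p between 0.051 and 0.12).

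Among 28 other receptors and bridging molecules for apoptotic cells, all measured, 5 rose and 14 fell in M1, with a median difference of -0.38 against 0.06 over all genes, of which 22.1% rose and 17.6% fell. In M2a, 6 rose and 10 fell, with a median of -0.08 against 0.07 over all genes, of which 18.6% rose and 13.3% fell. The list was named by role, without regard to how its genes moved, but with earlier results of these data known. In M1 the scavenger receptor Scarf1 rose by 2.54 (adjusted p = 3.9e-07) and C1qa, a chain of the complement protein C1q, by 1.37 (adjusted p = 0.0056), while annexin A1 (Anxa1) fell by 5.36 (adjusted p = 4e-11) and Itgb3 fell as above. C1qa was -0.21 with the hybridization covariate and 0.70 with the actin covariate, neither called. In M2a, Cd300ld rose by 1.97 (adjusted p = 0.00019) and Anxa1 by 1.26 (adjusted p = 1e-05), while thrombospondin 1 (Thbs1), which bridges dying cells to Cd36 and alpha-v integrins, fell by 4.90 (adjusted p = 8e-06) and the phosphatidylserine receptor Stab1 fell by 4.29 (adjusted p = 4.5e-07, limma). Stab1 in M2a, with a mean of 5.39, lay below the median gene.

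C1qb and C1qc, named here after their values were seen, followed C1qa down in M2a, with differences of -3.50 (adjusted p = 3.6e-06) and -2.99 (adjusted p = 8.2e-06). In M1 they differed by 0.56 (adjusted p = 0.13) and 0.62 (adjusted p = 0.087, limma); C1qb passed without M2a array 3 (adjusted p = 0.044). Timd4, a phosphatidylserine receptor also named after its values were seen, had a mean of 3.83 in M0 and 3.61 in both other states, below the median gene.

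**Figure D3:**
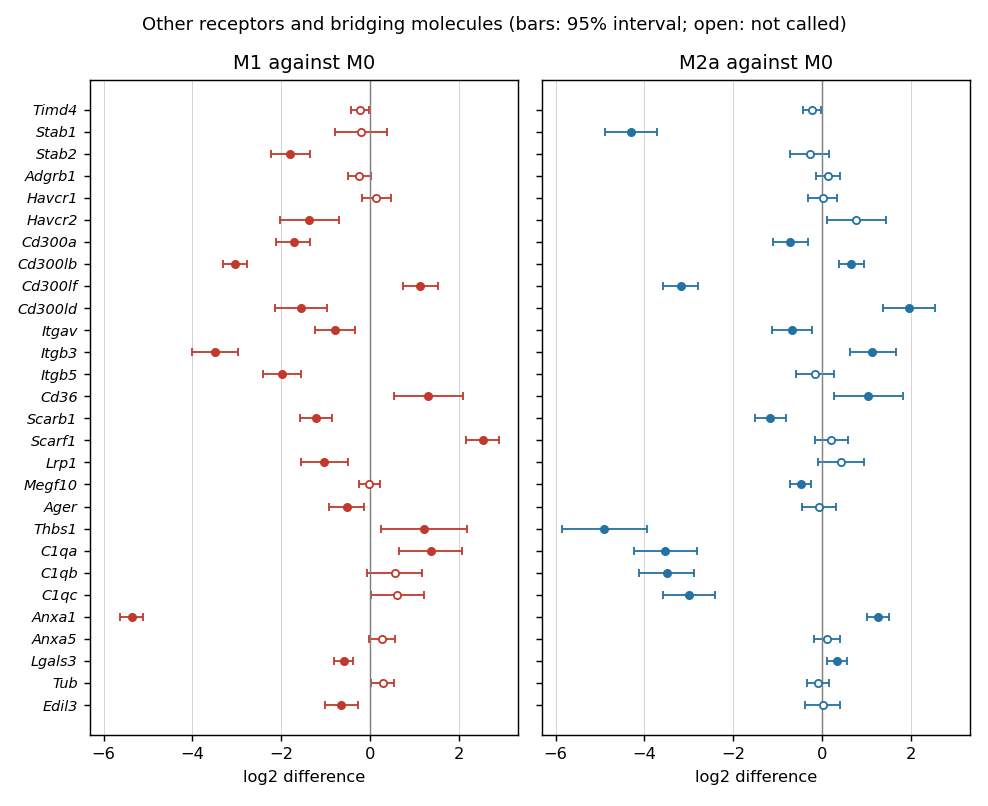
Log2 differences from M0 for 28 other receptors and bridging molecules, with 95% intervals; filled points were called at an adjusted p under 0.05. In M1, 14 of them fell, Anxa1 most; in M2a the 3 C1q chains, Stab1, Cd300lf and Thbs1 lie far to the left.

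Genes that act downstream of or on the TAM receptors were next. Of 13 measured genes of signalling, shedding and feedback, 6 rose and 1 fell in M1, and 1 rose and 3 fell in M2a, where 39.7% and 31.9% of all genes were called. The M2a count of falls was 6 or 7 in 4 alternatives, with 1 rise, and 8 with no rise in the fit with the hybridization covariate. Of all 18193 genes, 2825 to 3400 fell in M2a in those 4, and 4381 with that covariate. Socs1 and Socs3, which TAM receptors can induce and which interferon and other cytokines also induce, rose in M1 by 5.33 (adjusted p = 5.4e-09) and 5.10 (adjusted p = 5.8e-08). Socs1 in M0 and M2a (means 4.77 and 5.83) and Socs3 in M2a (5.23) lay below the median gene. The sizes of the differences that rest on those levels are uncertain. In M2a Socs1 rose by 1.06 (adjusted p = 0.0024) and Socs3 fell by 1.20 (adjusted p = 0.005); both calls were lost with the hybridization covariate (0.15 and -1.32). Plcg2, a phospholipase, fell by 0.44 in M1 (adjusted p = 0.0017), or -0.31 and not called with that covariate, and by 0.95 in M2a (adjusted p = 8.9e-06, limma). Adam17, a protease that sheds Mertk from the cell surface, rose by 0.80 in M1 (adjusted p = 0.0027) and differed by 0.00 in M2a (adjusted p = 0.99), and Adam10, which sheds Axl, differed by -0.36 (adjusted p = 0.24) and -0.62 (adjusted p = 0.058, limma). These 2 proteases were singled out after their values were seen. The rise of Adam17 was not called with the actin covariate (0.38) and was -0.13 with the hybridization covariate. Adam10 was sensitive to the setting: in M2a it was called lower in 9 of 26 alternatives, among them those without M0 array 1 (-0.74, adjusted p = 0.025) or M0 array 4 (-0.76, adjusted p = 0.011), and in M1 it was called lower in 5 and turned in sign, uncalled, in 2.

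The vitamin K cycle, which readies Gas6 and protein S for binding, had 1 call in each cytokine state in the main fit. Of its 3 genes, the carboxylase Ggcx rose by 0.71 in M1 (adjusted p = 0.0023), a call lost with the actin covariate (0.41), and the reductase-like Vkorc1l1 rose by 0.42 in M2a (adjusted p = 0.035, limma). The latter call was lost when M0 array 1, 3 or 4, M1 array 2 or any M2a array was left out, with adjusted p (limma) up to 0.097. Ggcx, with means of 4.41 in M0 and 5.12 in M1, lay below the median gene in both. The number of cycle genes called in M1 was larger in 7 and smaller in 1 of 26 alternatives. With quantile normalization, with array weights and without M0 arrays 1 and 4, 1 was higher and 2 lower. Of all 18193 genes, 3807 to 4438 were lower in those fits. With the hybridization covariate 2 were lower, and with the probe set of largest SD 2 were higher. In M2a the number was larger in 5 and smaller in 8. Of 23 measured genes of the engulfment machinery, 4 rose and 4 fell in M1 and 6 rose and 4 fell in M2a, with medians of 0.06 and 0.15, where 39.7% and 31.9% of all genes were called. In M1, without M0 arrays 1 and 4, 6 rose and 9 fell, and with the hybridization covariate 5 rose and 12 fell. Of all 18193 genes, 5274 rose and 3944 fell in the first of these fits, and 4311 rose and 4340 fell in the other. The exchange factor Vav1 rose by 0.96 in M1 (adjusted p = 5.4e-05) and fell by 1.04 in M2a (adjusted p = 4.5e-05). Dock2, a Rac activator, went the other way, falling by 0.85 in M1 (adjusted p = 6.4e-06) and rising by 0.84 in M2a (adjusted p = 1.1e-05), but without _x_at and _s_at probe sets its differences were -0.18 and 0.19 and neither was called. The small GTPase Rac2 rose by 0.84 in M1 (adjusted p = 0.00019), Atg7, an autophagy enzyme, rose by 1.18 in M2a (adjusted p = 9.7e-05), and Dnase2a, which digests the DNA of engulfed cells, fell by 1.33 (adjusted p = 0.00012) in M1 and by 0.95 (adjusted p = 0.0019, limma) in M2a.

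Lipid-sensing nuclear receptors, which raise Mertk and cholesterol efflux genes in macrophages that have eaten dying cells, and their targets gave 3 rises and 4 falls of 10 in M1 and 2 rises and 4 falls in M2a, where 22.1% of all genes rose and 17.6% fell in M1, and 18.6% rose and 13.3% fell in M2a. The liver X receptor Nr1h3 rose by 2.23 in M1 (adjusted p = 2e-06), from a mean of 7.04 to 9.28, and the cholesterol transporter Abca1 by 1.76 (adjusted p = 0.0052). Pparg fell there by 2.50 (adjusted p = 0.00036) and the transporter Abca7 fell by 1.87 (adjusted p = 2.8e-05). Pparg in M1, with a mean of 4.6, lay below the median gene. In M2a Pparg rose by 1.27 (adjusted p = 0.027) and the transporter Abcg1 by 1.03 (adjusted p = 0.01), while Apoe, a lipid carrier, fell by 4.74 (adjusted p = 1.8e-08) and Mylip by 1.16 (adjusted p = 0.038, limma). The Pparg call was lost without any single M2a array (adjusted p between 0.063 and 0.10), and with the hybridization covariate Pparg was -0.89. The Mylip call was lost without M0 array 2 or 3, or any M1 or M2a array (adjusted p between 0.055 and 0.13). With that covariate Abca1 in M1 was -0.55 and Abcg1 in M2a -0.09, and with the actin covariate Abca1 in M1 was 0.88 and not called.

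Of 10 find-me and do-not-eat-me genes, 5 rose and 2 fell in M1 and 2 rose and 5 fell in M2a, where 39.7% and 31.9% of all genes were called. Cd24a, a do-not-eat-me protein that granulocyte precursors also carry, fell by 4.18 in M1 (adjusted p = 2.6e-07) and 3.60 in M2a (adjusted p = 1.7e-06), and Pecam1 fell by 0.95 (adjusted p = 0.0031) and 2.11 (adjusted p = 1.3e-05). Pecam1 in M1 and M2a (means 5.32 and 4.16) lay below the median gene. Panx1, a channel that releases find-me nucleotides, rose by 1.70 (adjusted p = 0.00011) and 1.01 (adjusted p = 0.0052), Gpr132, a lysolipid receptor, by 0.90 in M1 (adjusted p = 0.00011), and the nucleotide receptor P2ry2 by 0.32 in both M1 (adjusted p = 0.039) and M2a (adjusted p = 0.043, limma). The P2ry2 call in M2a was lost without M0 array 1 or 4, or any M1 or M2a array (adjusted p between 0.055 and 0.12). With the hybridization covariate Panx1 was not called in M1 (0.76) or M2a (0.17), nor was Pecam1 in M1 (-0.58).

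Summed levels of markers of other cells also differed between the groups. Against M0, 22.1% of all genes were higher and 17.6% lower in M1, and 18.6% were higher and 13.3% lower in M2a. Neutrophil-lineage markers, 10 of 11 lower in M1 and 11 of 11 lower in M2a, summed to 15.73 to 16.71 in M0, 13.60 to 13.71 in M1 and 9.12 to 9.25 in M2a. Between M1 and M2a 4 of the 11 were called, all higher in M1, where 29.4% of all genes were called. The median difference of the 11 was 0.70, smaller than the gap between the sums. Of 8 megakaryocyte and platelet markers, cells that store protein S, 6 were lower and 1 higher in M1, and 6 were lower and 0 higher in M2a. Their sum fell from 12.28 to 12.80 in M0 to 9.53 to 9.68 in M1 and 9.59 to 9.86 in M2a. Of 13 stromal markers, cells that make Gas6, 2 were lower and 2 higher in M1 and 7 were lower and 1 higher in M2a. In M1 neither count exceeded its share over all genes. Their sums were 10.04 to 11.10 in M0, 9.15 to 9.27 in M1 and 8.38 to 8.60 in M2a. M0 means of the 13 stromal genes ran from 3.70 (Lum) to 9.60 (Acta2), with Col1a2 at 7.46 and Tagln at 7.26 next to the top; Acta2 fell to 6.80 in M1 and 6.31 in M2a, and an array value has no true 0. Endothelial markers summed to 8.16 to 9.0 in M0, 7.72 to 7.91 in M1 and 9.59 to 9.73 in M2a, and dendritic cell markers to 8.79 to 9.0, 8.65 to 8.67 and 12.05 to 12.35, the latter led by Itgax (12.07 in M2a). Mast cell, basophil and eosinophil markers summed to 12.27 to 13.65 in M0, 7.91 to 7.98 in M1 and 8.54 to 8.64 in M2a. Lymphocyte and NK cell markers summed to 8.39 to 9.70, 7.96 to 8.06 and 8.07 to 8.11. Erythroid markers summed to 10.13 to 10.68, 8.24 to 8.44 and 10.69 to 10.85, osteoclast markers to 10.88 to 11.11, 11.52 to 11.62 and 12.43 to 12.56, and adipocyte markers to 13.03 to 13.73, 11.66 to 11.72 and 13.88 to 13.98. A sum follows its highest genes and need not follow the list. In M1 the erythroid sum fell with 2 of 5 markers higher and 1 lower (median 0.15). The osteoclast sum rose there with 2 of 7 higher and 1 lower (median -0.18). In M2a the adipocyte sum rose with 1 of 4 higher and 1 lower (median -0.33). Of the 11 mast cell, basophil and eosinophil markers, 10 were lower in M1 and 9 in M2a, as their sums were. The part of these cells in the levels of the 6 genes was not tested, and in bulk samples fewer cells of a type and less RNA per cell cannot be told apart.

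Macrophage markers were high in sum in every state but did not move as one. Of the 11 measured, 5 were higher and 3 lower in M1, where 22.1% of all genes were higher and 17.6% lower. In M2a 2 were higher and 6 lower, where 18.6% of all genes were higher and 13.3% lower. The median difference in M2a was -0.80 against 0.07 over all genes. Adgre1, which encodes F4/80, had means of 11.19 in M0, 12.41 in M1 and 11.74 in M2a. Aif1 fell in M2a, with a mean of 4.77 against 9.51 in M0, and Mrc1 fell in M1, with 4.49 against 9.34. The summed level of the 11 macrophage markers was 15.01 to 15.44 in M0, 15.69 to 15.70 in M1 and 14.71 to 14.79 in M2a. Mertk followed that order, as did Csf1r with means of 13.22, 13.46 and 12.00 and Fcgr1 with 8.82, 11.22 and 6.73. The means of Axl did too, though its M1 and M0 arrays overlapped. Adgre1 and Mrc1 were among the markers that did not follow it, and the 3 of 11 markers lower in M1 all went against it. Gas6, Pros1, Mfge8 and Tyro3 did not follow it either.

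**Figure D4:**
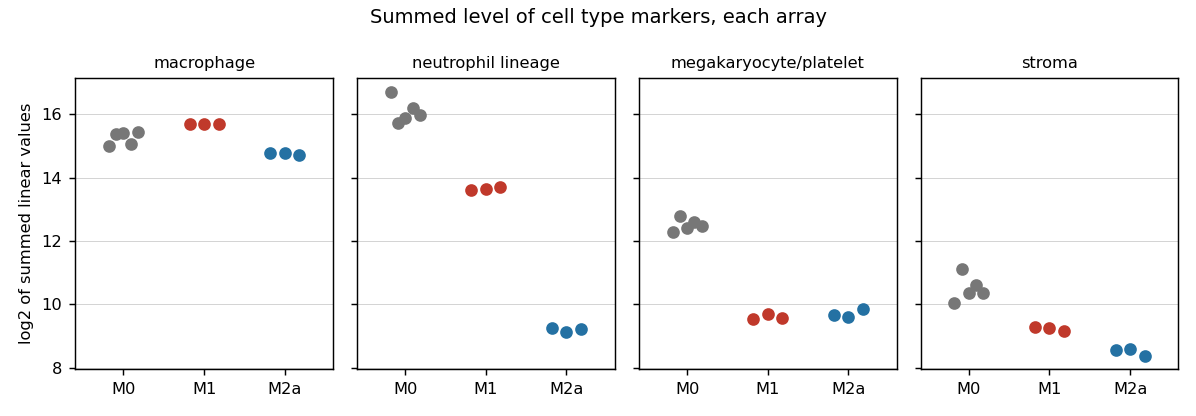
Summed level of 11 macrophage, 11 neutrophil-lineage, 8 megakaryocyte and platelet and 13 stromal markers on each array, as log2 of the summed linear values (grey M0, red M1, blue M2a). All 3 sets of other-cell markers are highest in M0, and macrophage markers span 14.71 to 15.70.

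The genes whose values ran most like those of each gene over the 11 arrays were found among 3679 genes with an SD of at least 0.5. These correlations describe 3 groups of arrays and are given without a test. Axl was closest to Mpeg1 (Pearson r = 0.996), a pore-forming protein of macrophages, C1qb (0.992) and Ost4 (0.991). Mertk was closest to the phosphatase Ptpn1 (0.998), cathepsin H (Ctsh, 0.994) and the adhesion molecule Icam1 (0.991), whose group means were 7.26 in M0, 10.50 in M1 and 4.93 in M2a. Gas6 was closest to the retinal dehydrogenase Aldh1a1 (0.994), with means of 7.41, 3.41 and 3.90, Ncoa3 (0.992) and Pgm2l1 (0.989). Pros1 was closest to Cmas (0.990), Zranb3 (0.987) and the chemokine Cxcl14 (0.979), with means of 6.72, 4.37 and 8.15. Mfge8 was closest to Apbb2, Daglb and Bex1 (0.990 each), and Bex1 had means of 7.77, 2.11 and 12.33. Tyro3, with an SD of 0.31 over the arrays, was left out by that rule.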

How the data were processed

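Total RNA of 11 macrophage samples was hybridized to an Affymetrix mouse array. Values deposited by the authors are on a log2 scale, cover 45101 probe sets and run from 0.73 to 14.49. The submitters' processing notes name Partek but no version; how background was corrected and probes were summarised and normalized is not stated in the labels. The number of arrays limits the precision. A platform table gave 1 gene symbol for 34958 probe sets, of which 34754 were updated through the Entrez identifier in RefSeq (GRCm38.p6); 932 with several symbols were left out.

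The main fit used limma 3.58.1 in R 4.3.3 (lmFit, eBayes, a mean per state, all 11 arrays, 8 residual degrees of freedom), checked on simulated data. Other probe sets of the 6 genes were tested in a fit of all 45037 probe sets that are not array controls. Of 90 pathway genes in 6 lists 87 were measured, and of 104 marker genes in 11 lists 94. From each pathway list, up to 2 rises and 2 falls against M0 were named among called genes whose arrays did not overlap, and up to 3 like genes per member, passing over clone-like symbols. The genes and lists were chosen with earlier results of these data known. There were 26 alternatives: other normalizations, probe-set choices, filters, fit settings, subsets of arrays, the replicate block and control-probe covariates.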

Additional observations from a re-analysis of the deposited data

How the results depend on the processing

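The calls of Gas6 and Mfge8 against M0, of Axl and Mertk in M2a against M0, of Pros1 in M1 against M0, and of Axl, Mertk, Pros1 and Mfge8 in M1 against M2a held in all 26 alternatives. Several alternatives could not move a difference. Mertk, Pros1 and Mfge8 had 1 probe set each, so probe-set choice left theirs as they were. Leaving out M0 arrays does not alter a difference between M1 and M2a. Averaging each gene's probe sets, which adds a dim probe set, gave smaller changes, in which Axl fell by 1.94 in M2a and Gas6 fell by 2.22 in M1 and by 1.76 in M2a. Axl in M1 against M0, not called, was -0.07 with array weights, -0.24 without M0 arrays 1 and 4, -0.45 with the actin covariate and -1.48 with the hybridization covariate. With the hybridization covariate, 3 of the 6 genes were called in M1 against M0, where 8651 of all genes were called. With that covariate Tyro3 was 0.22 in M1 and, called, 0.81 in M2a, and Pros1 was -0.33 in M2a. Tyro3 in M2a was also called with array weights (0.29) and without M0 arrays 1 and 4 (0.41), and its call in M1 against M2a was lost with averaged probe sets (-0.27) and the actin covariate (-0.38). With the hybridization covariate, among other genes C1qa was -0.21, C1qb -0.32, C1qc -0.29, Ggcx -0.04, Abca1 -0.55 and Adam17 -0.13 in M1, and Vkorc1l1 -0.01, Pparg -0.89, Abcg1 -0.09 and P2ry2 -0.11 in M2a. Stab1 in M1 was 0.09 with the actin covariate, and Adam10 in M1 was 0.03 with averaged probe sets and 0.66 with the probe set of largest SD, but called lower with quantile normalization (-0.61), array weights (-0.53), the actin covariate (-1.01), the hybridization covariate (-1.64) and without M0 arrays 1 and 4 (-0.70). The cause of these changes was not tested. All genes called in M1 against M0 numbered 7217, 4625 among genes above the median gene, where fewer were tested, and 4758 with M0 arrays 4 and 5 only; in M2a against M0 they numbered 5804, 3801 with those arrays and 9008 with the hybridization covariate. In M1 against M2a they numbered 5341, 10357 with only the 2 groups, 11342 with array weights, 8653 without M0 arrays 1 and 4 and 8442 with the hybridization covariate. Leaving out 1 array gave 5391 to 8457, 4161 to 6829 and 3927 to 6192 called genes in the 3 comparisons, and 4 to 5, 4 to 5 and 5 to 6 of the 6 genes. By the tie of the M0 means, M0 arrays 1 to 3 and M0 arrays 4 and 5 give the same differences. The labels number replicates 1 to 3 in each state. Deviations of same-numbered arrays correlated at -0.0392 to 0.248, over 0.1 in 2 of 9 pairs. Arrays of different number correlated at -0.244 to 0.221, so these values cannot decide whether the numbers pair the arrays. A fit with the replicate block called 8023, 6492 and 6963 genes, 5 of the 6 in each comparison, and changed no call of the 6 genes. In it Adam10 in M2a gained a call (-0.62, adjusted p = 0.015) and P2ry2 in M2a lost its call (0.32, adjusted p = 0.071, limma).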
